A study of Macaca mulatta with 20 samples.

Results

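Gene expression in the corpus luteum of the rhesus macaque was compared on luteal day 10 between females given human chorionic gonadotropin (hCG) for 1 day and untreated females. The comparison used 8 of the 20 arrays of the series, 4 labelled as day 10 with hCG and 4 labelled as day 10 controls, and the members were chosen by these labels alone. In the treated females hCG began on luteal day 9 by injection into muscle, 2 times a day, on a schedule that rose through 9 doses from 15 to 2880 IU, and the labels do not say which doses had been given by day 10. The untreated females received no hCG, and both groups were sampled on the same luteal day, so that this is the only comparison of the series in which treated and untreated tissue share a day. The other 12 arrays, from hCG days 12, 15 and 18, entered the fit only to estimate the spread between arrays. Each array measured RNA of a whole piece of corpus luteum, in which fewer cells of a type and less RNA per cell cannot be told apart. No label ties a corpus luteum to an animal, so p-values measure the spread between these samples, which may be partly technical.

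The corpus luteum forms from the follicle after ovulation and makes progesterone from cholesterol, which its cells take up from lipoproteins or build themselves from acetate through mevalonate, squalene and lanosterol. Chorionic gonadotropin is the hormone by which an early embryo keeps the gland alive. It acts on the luteinizing hormone (LH) receptor, which raises cyclic AMP and activates protein kinase A, and gonadotropin is known to act on cholesterol supply, on the steroidogenic enzymes and on growth factors of luteal and endothelial cells.

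The array medians averaged 44.1 intensity units in the untreated and 39.6 in the hCG arrays, and with 4 against 4 no single quality measure could pass after adjustment. Median signals ran from 40.6 to 46.4 intensity units in the untreated arrays and from 36.3 to 42.8 in the hCG arrays (exact permutation test, two-sided, p = 0.0857, adjusted p = 0.171 over 4 quality measures, where 0.0286 is the smallest unadjusted p that this design allows). The share of probe sets under 16 units, 28.7 to 31.9% in untreated and 30.6 to 33.4% in hCG arrays, had the same p. Correlations of log2 signals were 0.967 to 0.979 within a group and 0.959 to 0.981 between the groups. Untreated replicate 2 stood apart in some genes: its signal for LUM, which encodes the matrix protein lumican, was 602 against 23.8 to 56.2 in the other untreated arrays. Transcripts of luteal steroidogenic cells were bright in all 8 arrays, with STAR, the protein that carries cholesterol into mitochondria, at 13120 to 17490, and FDX1, the electron donor of the side-chain cleavage enzyme, at 10650 to 16070.

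Across the annotated genome few genes passed the test after 1 day of hCG, and most of those that passed were higher. Of 14132 genes with a symbol on the array, 263 passed the test (limma, Benjamini-Hochberg adjusted p under 0.05 over 52707 probe sets), 189 higher and 74 lower, with no gene called in both directions. That is 1.86% of the genes, 1.34% higher and 0.524% lower. The number of genes depended on single arrays and on the fit: it was 153, 160 and 150 without untreated replicate 2, 3 or 4, 126 and 144 without hCG replicate 3 or 4, 90 in a fit of these 8 arrays only and 139 with 1 unit added before the logarithm in place of 16. Over all probe sets, named or not, 503 passed (0.954%), 343 higher and 160 lower, while 6545 had an unadjusted p under 0.05. These 6545 of 52707 are the background for the counts of unadjusted p given below. The share of upward calls depended on the scaling of the arrays: it was 68.2% on the deposited signals, 71.5% after quantile normalisation (408 higher and 163 lower) and 86.1% after each array was centred on its median (463 higher and 75 lower). The array medians of the hCG group lay 0.12 log2 units below those of the untreated group. Centring also raised the medians of the gene lists described below, whether above or below 0. It moved the IGF system from 0.34 to 0.46 and the angiogenic list from -0.25 to -0.14. The signals of the 2 groups did not overlap for 7.96% of probe sets, 1804 of them higher with hCG and 2394 lower. By this measure decreases were more numerous than increases. Lack of overlap in genes that did not pass is given below only as a description.

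When each gene was represented by its brightest probe set, the middle of the distribution stayed near 0. The median log2 change of the 14132 genes was -0.01, with quartiles at -0.19 and 0.16, and 90.6% of genes lay within 0.5 log2 units of no change. Above 0 were 49.2% of genes. At this level 158 genes were called higher (1.12%) and 60 lower (0.425%), 1.54% together, and this is the background against which the gene lists below are read. Calls were rarer among dim genes: of the 3533 genes in the lowest of 4 equal classes of mean signal 9 were called higher and 3 lower, against 77 and 27 in the highest class. Of the 263 called genes, 14 differed by under 1.5-fold, 128 by 1.5- to 2-fold, 111 by 2- to 4-fold and 10 by over 4-fold, taking the called probe set with the smallest p.

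**Figure D1:**
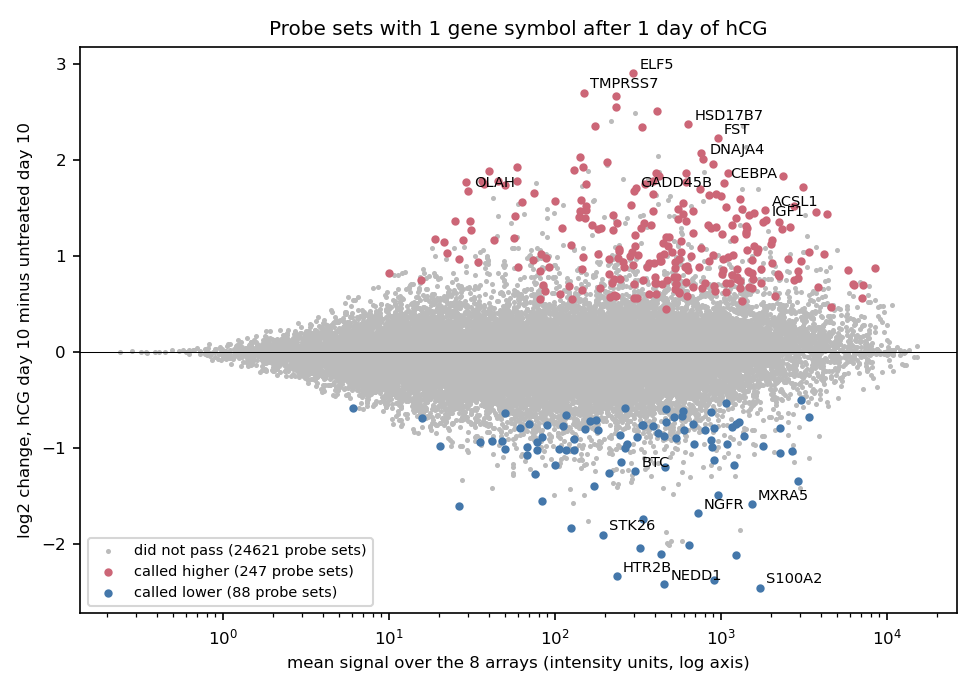
Log2 change (hCG day 10 minus untreated day 10, vertical axis) against mean signal over the 8 arrays (horizontal axis, intensity units, log scale) for the 24956 probe sets with 1 gene symbol. Red points are probe sets called higher, blue points those called lower and grey points those that did not pass; most calls lie above 0 and few lie among the dim probe sets at the left.

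The called genes did not draw equally on the 4 hCG arrays. Among the 189 genes called higher, hCG replicate 3 gave the highest hCG signal in 76, replicate 4 in 65, replicate 2 in 29 and replicate 1 in 19, and replicate 1 gave the lowest in 90. Among the 74 called lower, replicate 1 had the highest hCG signal in 34 and replicate 3 the lowest in 27. So hCG replicate 1 most often lay nearest to the untreated arrays, and replicates 3 and 4 farthest from them. Of the 182 called genes with more than 1 probe set, all probe sets of the gene pointed the same way in 139, and in 57 genes at least 2 probe sets passed.

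The largest changes were ranked among genes whose groups did not overlap, each gene by the called probe set with its smallest p, and the largest increase was in ELF5, a transcription factor of glandular epithelia. Its signals in untreated replicates 1 to 4 were 85.6, 12.8, 45.1 and 62.1, and in hCG replicates 1 to 4 702, 125, 479 and 859. All 4 hCG arrays lay above all untreated arrays, with hCG replicate 2 closest to them. ELF5 rose 7.49-fold (log2 change 2.90 ± 0.51, standard error, n = 4 per group, adjusted p = 0.00765), and its second probe set rose by 1.88. On that second probe set the untreated signals, 1.54 to 10.7, lay under the 16 units added before the logarithm, so its size depends on them. There hCG replicate 2, at 10.4, lay within the untreated range. TMPRSS7, a membrane-bound serine protease, gave 8.33, 103, 19.9 and 11.8 in the untreated arrays and 189, 187, 277 and 404 in the hCG arrays. Untreated replicate 2 was the one untreated array with a clear signal, and it still lay below every hCG array. The change was 6.49-fold (2.70 ± 0.41, adjusted p = 0.00226), with a second probe set at 2.66. Because the other untreated signals lie around the 16 units added before the logarithm, this size, and the gene's rank by it, depend on that addition.

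Next in size came a mixed set of genes. MFSD2A, a transporter of lysophosphatidylcholine carrying polyunsaturated fatty acids, read 29.2, 66.6, 57.1 and 33.5 without hCG and 201, 273, 309 and 429 with it, and so rose 5.09-fold (2.35 ± 0.28, adjusted p = 0.000445). Its highest untreated value was a fraction of its lowest hCG value. HSD17B7, which reduces a keto-sterol on the way to cholesterol, had 3 probe sets, and all 3 rose, by 1.34, 1.71 and 2.37. On the one with the largest change the signals were 159, 319.8, 199 and 116 in untreated and 648, 983, 1388 and 1261 in hCG arrays. VNN1, a pantetheinase that releases cysteamine, rose by 1.89 ± 0.38 (adjusted p = 0.0176), with 31.8 to 48.7 in untreated and 109 to 440.1 in hCG arrays, and hCG replicate 2 alone held the top value.

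DNAJA4, an HSP40-type co-chaperone, had the smallest p-value of all named genes. It read 283, 372, 246 and 295 in untreated and 1006, 1494, 1461 and 1072 in hCG arrays, a 4.03-fold rise (2.01 ± 0.16, adjusted p = 8.06e-06), and its other 2 called probe sets rose by 2.03 and 1.40. FST, which encodes follistatin, the secreted protein that binds and blocks activins, read 213, 558, 244 and 485 in untreated and 1199, 1594, 1097 and 1788 in hCG arrays. Untreated replicates 2 and 4 were high within their group, yet both lay below every hCG array. FST rose 3.89-fold on this probe set (1.96 ± 0.27, adjusted p = 0.00119), and by 1.92 and 2.23 on its other 2. HAL, histidine ammonia-lyase, the first enzyme of histidine breakdown, rose 3.63-fold (1.86 ± 0.28, adjusted p = 0.00216), with 104 to 302 in untreated and 518 to 783 in hCG arrays. ANKRD22, an ankyrin repeat protein, rose by 1.98 ± 0.33 (adjusted p = 0.00454), with hCG replicate 2, at 126, close above the highest untreated value of 113. Its other probe sets were at 2.55, which passed, and at -0.20. TNS4, a focal adhesion protein of epithelia, read 8.18 to 20.6 in untreated arrays, again around the 16 units added, and 59.8 to 159.6 in hCG arrays, so the size of its rise depends on that addition. LOC695959 (5.67-fold) and LOC702286 (5.07-fold), known here only by locus number, were the other genes among these 12, and the call of LOC702286 was lost when any one of 6 arrays was left out (highest adjusted p = 0.12). RCAN1, described further on, is not among the 12 because the probe set with its smaller p rose by 1.86, although its other called one rose by 2.07. The calls of ELF5, TMPRSS7, ANKRD22, VNN1 and LOC702286 ended when only these 8 arrays were fitted. Those of VNN1 and TNS4 ended without untreated replicate 1 or 2 or hCG replicate 2 or 4 and without untreated replicate 1 or 2 or hCG replicate 2 or 3, respectively.

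By the same ranking the largest decrease was in S100A2, a calcium-binding protein of epithelial cells. Its untreated signals were 1934, 6862, 2036 and 1139, with replicate 2 far above the others, and its hCG signals 487, 225, 591 and 467. All 4 hCG arrays lay below the lowest untreated one. S100A2 fell 5.47-fold (-2.45 ± 0.46, adjusted p = 0.0109). NEDD1, which brings the gamma-tubulin ring complex to the centrosome, fell on all 4 of its probe sets, with log2 changes of -2.42, -2.37, -2.11 and -2.10. On the first of these the untreated arrays read 801, 649, 891 and 750.1 and the hCG arrays 181, 152, 119 and 88.2 (adjusted p = 5.07e-05), so that no hCG array came near the untreated range.

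Both STK26 and STK17B, serine/threonine kinases of the germinal centre kinase and death-associated kinase families, fell on several probe sets, 4 of 5 for STK26, with the other at -0.11, and both for STK17B. STK26 read 394, 169, 301 and 404 without hCG and 66.9, 91.9, 57.0 and 64.3 with it (-1.90 ± 0.27, adjusted p = 0.0014). STK17B read 277, 236, 155 and 155 and 52.6, 46.4, 35.2 and 46.0 (-1.83 ± 0.29, adjusted p = 0.0028). In neither gene did the groups overlap. MXRA5, a matrix protein, fell 3-fold (-1.58 ± 0.27, adjusted p = 0.00504), with 1810 to 3616 in untreated and 643 to 799 in hCG arrays. GRB14, an adapter that binds the insulin receptor and dampens it, fell 2.53-fold (-1.34 ± 0.26, adjusted p = 0.0164), with 2436 to 7422 in untreated and 1218 to 1989 in hCG arrays, and BCO2, a mitochondrial carotenoid-cleaving oxygenase, 2.41-fold (-1.27 ± 0.16, adjusted p = 0.000541). The other BCO2 probe set was at 0.09 and did not pass. The remaining members of the 12 largest decreases were NABP1, a single-stranded DNA-binding protein (-1.49 ± 0.30), TNFRSF11B, which encodes osteoprotegerin (-1.55 ± 0.35), the locus LOC711851 and the receptors NGFR and HTR2B, which are described with the signalling genes. LOC711851 fell to 2.5 to 6.21, under the 16 units added, so its size is not resolved. The calls of S100A2, GRB14, TNFRSF11B and NGFR ended when only these 8 arrays were fitted. That of GRB14 also ended without hCG replicate 3, and that of NABP1 ended without untreated replicate 4 or hCG replicate 3 or 4. TNFRSF11B also lost its call without untreated replicate 1, 2 or 3 or hCG replicate 2, 3 or 4. The same held with a replicate block, after quantile normalisation (limma adjusted p = 0.062) and after median-centring (0.054). LOC711851 lost its call without untreated replicate 1, 2 or 4 or hCG replicate 1, 2, 3 or 4.

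**Figure D2:**
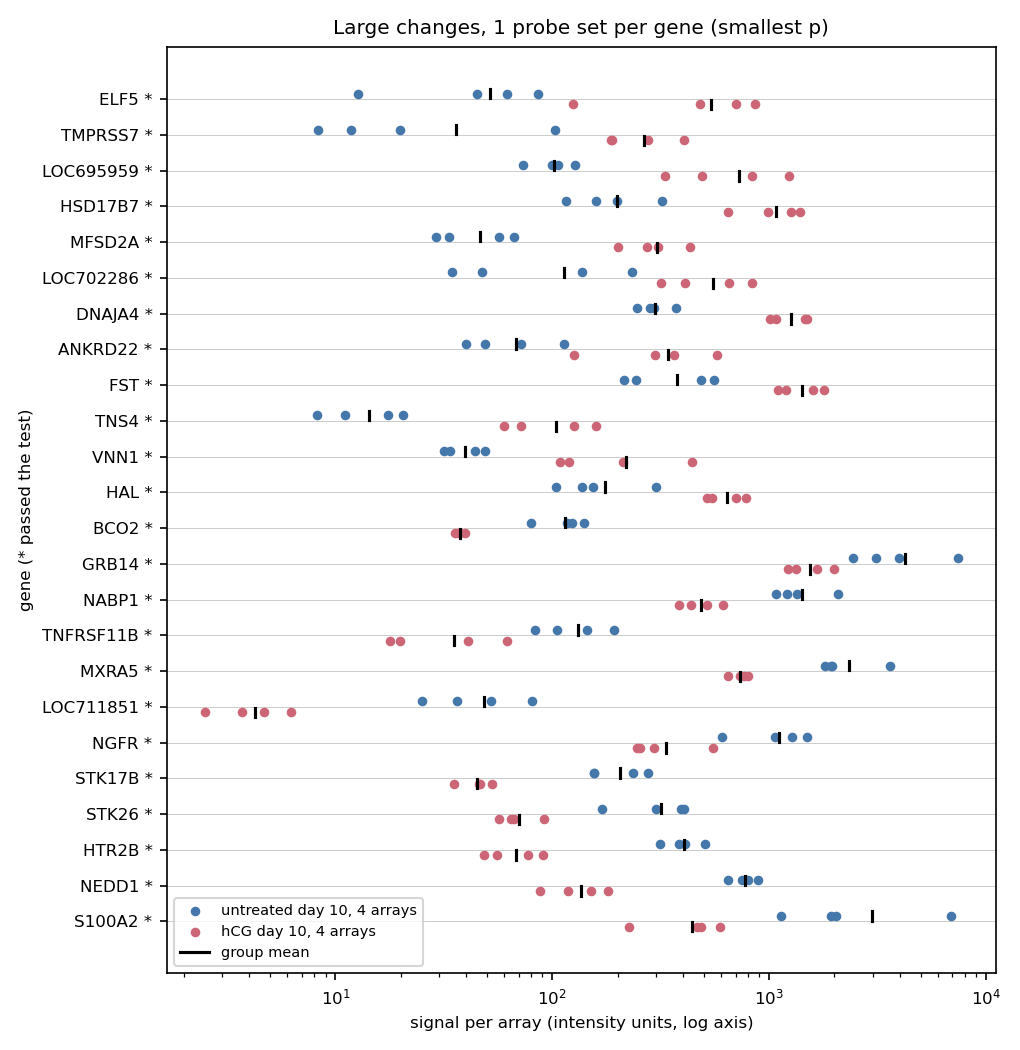
Signal on each array (horizontal axis, intensity units, log scale) for 12 genes with large increases and 12 with large decreases, ranked among genes whose groups did not overlap by the called probe set with the smallest p of each gene. Blue points are the 4 untreated arrays, red points the 4 hCG arrays and black ticks the group means; the red points lie wholly to the right of the blue ones in the upper 12 rows and wholly to the left in the lower 12.

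Cholesterol synthesis was the gene list with the most calls. All 13 measured enzymes were above 0, with a median log2 change of 1.02 against -0.01 over all genes, and 6 of the 13 passed, all upward, against a background of 1.12% called higher. With any probe set of a gene counted, 8 passed. The list held 20 genes, and none of the 13 measured acts before mevalonate kinase. Of its members, HSD17B7 and DHCR7 kept their calls under all alternatives tried. The number called ranged from 2 to 9 over the alternatives. It was 2 without untreated replicate 1, 2 or 4, without hCG replicate 3 or 4, without the 3 arrays of the series that stand apart, with only these 8 arrays fitted, and with 1 unit added in place of 16. Members of this and the later lists that did not pass are named for their roles, most of them after their values were seen.

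The early steps, from mevalonate to squalene, were mixed, with a median of 0.69 over 6 enzymes and 2 calls. MVK and PMVK, the kinases of mevalonate, were at 0.40 ± 0.17 and 0.20 ± 0.19 with overlapping groups, and FDPS, which makes farnesyl diphosphate, was at 0.15 ± 0.17. None of these passed. IDI1, the isomerase that makes dimethylallyl diphosphate, read 1046, 1292, 1833 and 853 in untreated and 1793, 2516, 3455 and 3520 in hCG arrays, and rose 2.24-fold (1.16 ± 0.26, adjusted p = 0.0362). On this probe set, which may also match related transcripts, untreated replicate 3 overlapped hCG replicate 1. Of the other 2 IDI1 probe sets, the one at 1.32 passed without overlap and the one at 1.41 did not pass. FDFT1, squalene synthase and the first enzyme committed to sterols, read 1583, 1458, 2330 and 1504 and 2675, 3101, 4239 and 3463, with no overlap, and rose 1.96-fold (0.97 ± 0.20, adjusted p = 0.02). MVD, mevalonate diphosphate decarboxylase, was at 1.02 ± 0.35 and did not pass (adjusted p = 0.213).

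From squalene to cholesterol most enzymes were about or above 1 log2 unit higher. SQLE, squalene epoxidase and a rate-limiting step, read 341, 459.6, 611 and 273 and 769, 907, 674 and 1235, without overlap, but its brightest probe set missed the threshold (1.09 ± 0.29, adjusted p = 0.0871) while its other one passed at 1.32 (adjusted p = 0.0233). The 6 enzymes from lanosterol onward had a median of 1.16 and a range of 0.83 to 1.77, and 4 of them passed. CYP51A1, lanosterol demethylase, rose 2.1-fold (1.07 ± 0.24, adjusted p = 0.0362), with 775 to 1557 in untreated and 1715 to 2905 in hCG arrays. TM7SF2, a sterol reductase, and NSDHL, a sterol dehydrogenase, did not pass on their brightest probe sets (0.83 ± 0.21 and 0.96 ± 0.24, adjusted p = 0.0684 and 0.0705), although in both all hCG arrays lay above all untreated ones. EBP, the sterol isomerase, rose 2.37-fold (1.25 ± 0.28, adjusted p = 0.04), with 627 to 1172 in untreated and 1345 to 2732 in hCG arrays. DHCR7, the reductase of the last step, had the largest change of the list on brightest probe sets. It read 291, 187, 358 and 221 in untreated and 604, 710.1, 1169 and 1382 in hCG arrays, a 3.41-fold rise (1.77 ± 0.30, adjusted p = 0.00538) in which the hCG arrays were themselves spread over a wide range. Leaving out 1 array ended the call of IDI1 without untreated replicate 1, 2 or 4 or hCG replicate 2, 3 or 4, of FDFT1 without untreated replicate 1, 2 or 4 or hCG replicate 3 or 4, of CYP51A1 without untreated replicate 1, 2 or 4 or hCG replicate 3 or 4 and of EBP without untreated replicate 1, 2 or 4 or hCG replicate 3 or 4.

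Within each group many enzymes of the pathway were highest or lowest on the same arrays. Untreated replicate 3 gave the highest untreated signal for 9 of the 13 enzymes and replicate 4 the lowest for 7. Among the hCG arrays, replicate 3 was highest for 7 and replicate 4 for 6, and replicate 1 lowest for 9. The mean log2 signal of the 13 enzymes was 9.21, 9.25, 9.66 and 9.08 in untreated replicates 1 to 4 and 9.91, 10.10, 10.55 and 10.52 in hCG replicates 1 to 4. The lowest hCG array thus stood above the highest untreated one, by less than the spread within either group.

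**Figure D3:**
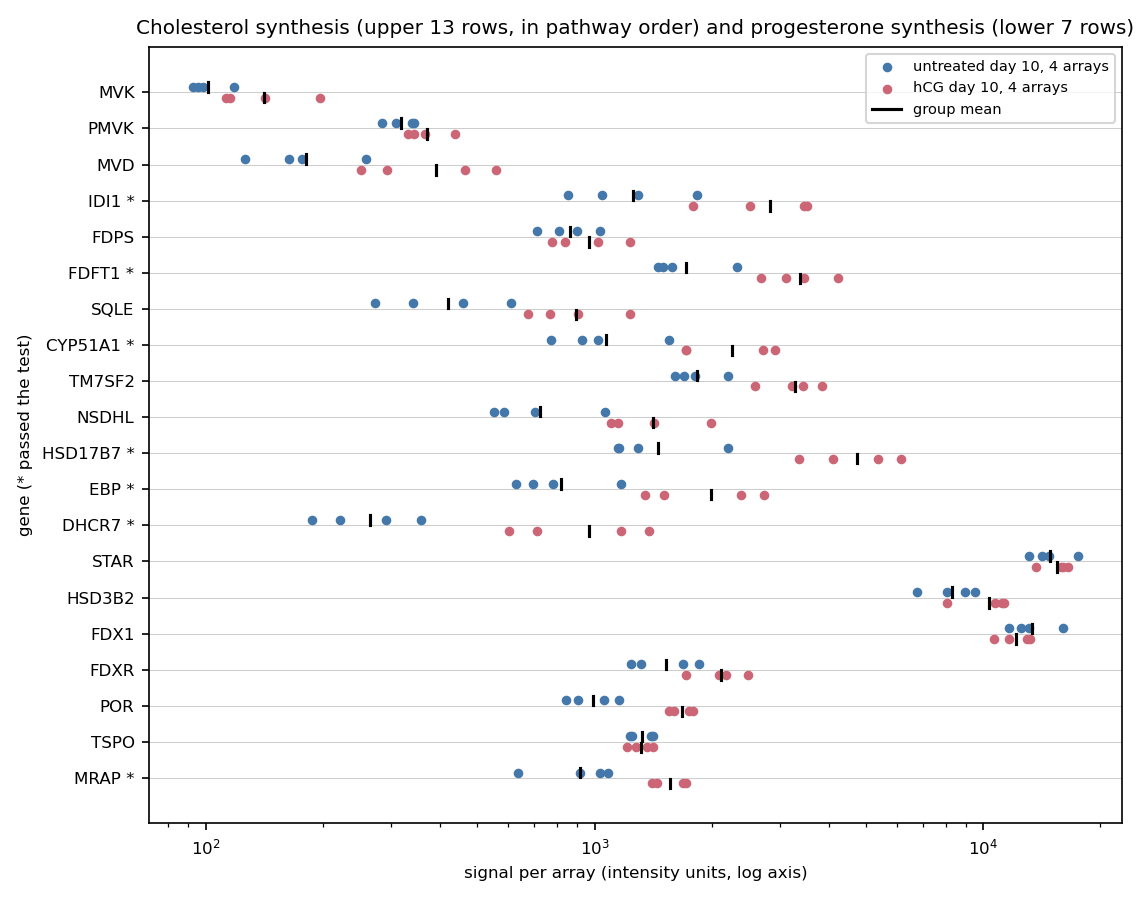
Signal on each array (horizontal axis, intensity units, log scale) for 13 enzymes of cholesterol synthesis in pathway order. Below them are 7 genes of the progesterone synthesis list, MRAP among them. Blue points are untreated arrays, red points hCG arrays, black ticks group means and asterisks genes that passed; the red points are shifted to the right from IDI1 down to DHCR7, except for FDPS, whose groups overlap, and the bright genes STAR, HSD3B2 and FDX1 overlap between the groups.

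Genes around the pathway held no call. Of 14 measured genes of sterol sensing and lipoprotein uptake none passed, and 3 had an unadjusted p under 0.05 upward and 1 downward, with a median of 0.04. The list held 23 genes. Only 2 of those measured, VLDLR and MYLIP, were receptors or their control, so uptake was hardly covered. SREBF2, the transcription factor that drives cholesterol synthesis genes when sterols are low, was at 0.47 ± 0.19 (adjusted p = 0.306), with 312 to 419 in untreated and 419.8 to 675 in hCG arrays. INSIG1, which holds that factor's escort protein in the endoplasmic reticulum, was at 0.58 ± 0.26, NPC1, which moves cholesterol out of lysosomes, at 0.65 ± 0.29, and MYLIP, the ubiquitin ligase that degrades the LDL receptor, at -0.50 ± 0.21. Of 8 cholesterol efflux genes none passed and 1 had an unadjusted p under 0.05, with a median of 0.15. LPCAT3, a phospholipid-remodelling acyltransferase, was at 0.54 ± 0.25.

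Fatty acid synthesis and lipid storage had 2 calls in 23 measured genes, both upward, and a median of 0.26. ACSL1, which activates long-chain fatty acids to acyl-CoA, read 1089, 1132, 738 and 947 in untreated and 2720, 2319, 2833 and 2980 in hCG arrays. The groups were far apart, and the 2.77-fold rise (1.47 ± 0.19, adjusted p = 0.000553) was the same size on its other probe set. ANGPTL4, a secreted inhibitor of lipoprotein lipase, read 1572, 1184, 1705 and 1483 and 3286, 2888, 4033 and 4619, and rose 2.46-fold (1.30 ± 0.23, adjusted p = 0.00785). The second probe set of ANGPTL4 passed at 1.23. LPL, the lipase itself, was at -1.27 ± 0.44 and did not pass (adjusted p = 0.218): its untreated signals were 775, 379, 276 and 263 and its hCG signals 271, 171, 100.2 and 103, which overlapped at hCG replicate 1. Of the fatty acid synthesis enzymes, FASN, fatty acid synthase, was at 0.71 ± 0.25, ACACA, acetyl-CoA carboxylase, at 0.68 ± 0.30 and FADS2, a desaturase, at 1.01 ± 0.39, and none of these passed.

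The progesterone synthesis list had 2 calls in 15 measured genes, with a median of 0.28. These were MRAP and CEBPA, and neither was one of the abundant steroidogenic transcripts. STAR was at 0.06 ± 0.17, HSD3B2, which makes progesterone from pregnenolone, at 0.31 ± 0.21 and FDX1 at -0.13 ± 0.13, all with overlapping groups. FDXR, which feeds electrons to FDX1, was at 0.48 ± 0.19. POR, the electron donor of microsomal P450 enzymes such as CYP51A1 and CYP17A1, had hCG arrays wholly above the untreated ones (1555 to 1796 against 846 to 1155) and missed the threshold (0.76 ± 0.19, adjusted p = 0.0649), while its dimmer 3 probe sets lay between -0.41 and -0.40. MRAP, an accessory protein of melanocortin receptors, read 637, 1080, 919 and 1034 and 1403, 1450, 1687 and 1723 and rose 1.72-fold (0.78 ± 0.15, adjusted p = 0.0152). A dimmer MRAP probe set was at 0.00, and the call ended with only these 8 arrays fitted and without hCG replicate 3 or 4.

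Among the transcription factors of the list, CEBPA changed most. It read 435, 472, 502 and 379 in untreated and 1376, 1410, 1129 and 2605 in hCG arrays, with hCG replicate 4 highest, and rose 3.39-fold (1.76 ± 0.26, adjusted p = 0.002). Its other 2 probe sets passed too, at 1.47 and 1.83. CEBPB, its relative that gonadotropin is known to act on in the follicle, was at 0.61 ± 0.18 without overlap and did not pass (adjusted p = 0.133). NR5A2, GATA6 and GATA4, which bind steroidogenic promoters, were at -0.05 ± 0.17, 0.24 ± 0.15 and 0.36 ± 0.16, and NR5A1 was dim, at 44.7 to 121 in untreated and 83.3 to 115 in hCG arrays.

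Of 8 other steroid enzymes none passed, and 7 were above 0 with a median of 0.28. CYP17A1, the 17-hydroxylase and lyase on the way to androgens, had hCG signals of 439, 753, 1007 and 1080 against 358, 406, 274 and 255, without overlap (1.25 ± 0.34, adjusted p = 0.0961). CYP19A1, aromatase, was at 0.68 ± 0.26, with untreated replicate 4 low at 3806 and the other 3 untreated arrays at 6733 to 6927. HSD11B1, which regenerates cortisol, was at 0.33 ± 0.13 (adjusted p = 0.271), with 5588 to 6452 in untreated and 6909 to 8006 in hCG arrays.

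The LH receptor gene, LHCGR, was not named in the annotation used here and has no value. Of 33 measured genes downstream of it, from G protein regulators to cyclases, phosphodiesterases, protein kinase A subunits and CREB factors, 0 passed in the limma fit, 3 had an unadjusted p under 0.05 upward and 4 downward, and the median was -0.13, or -0.02 after centring each array on its median. RGS2, which speeds the shut-off of G proteins, came closest, with untreated signals of 3508, 3598, 2258 and 3718 and hCG signals of 6938, 5899, 7948 and 6213, without overlap (1.06 ± 0.27, adjusted p = 0.069), while its other probe set was at -0.04. Of the cyclic AMP phosphodiesterases, PDE7B was at 0.88 ± 0.25 and PDE8B at -1.22 ± 0.35, in opposite directions. PRKACB, a catalytic subunit of protein kinase A, was at -0.34 ± 0.13. Genes related to protein kinase A but not on this list, PRKX, AKAP1 and SIK2, were called higher and are given with the other calls.

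Immediate early genes, which are known to rise within minutes to hours of a stimulus, were mostly below 0 after 1 day of hCG. Of 19 measured transcription factors and phosphatases of this class 5 were above 0, the median was -0.31 (-0.20 after centring), and 8 had an unadjusted p under 0.05 downward, although none of the 8 passed. Over all 52707 probe sets 6545 had such a p, in either direction. NR4A1, an orphan nuclear receptor of the acute gonadotropin response, read 486, 336, 270.2 and 528 in untreated and 146, 174, 214 and 206 in hCG arrays, without overlap (-1.03 ± 0.26, adjusted p = 0.0659). EGR2 was at -1.27 ± 0.50, ATF3 at -0.60 ± 0.24 and MYC at -0.43 ± 0.18. DUSP5, a phosphatase of ERK, had the most extreme value of the list, -2.01 ± 0.81, and did not pass (adjusted p = 0.307). DUSP16, a phosphatase of JNK, was the 1 call of the list and went the other way: it read 358, 319, 326 and 379.7 and 698, 726, 1118 and 675, and rose 2.23-fold (1.15 ± 0.18, adjusted p = 0.00258).

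Growth factor genes changed in both directions. In the activin, inhibin and BMP list, with 32 measured genes, FST rose, as given above, and BMP4 fell, and the median was -0.20 (-0.08 after centring). BMP4 read 163, 188, 94.5 and 145 in untreated and 60.1, 56.9, 80.5 and 57.5 in hCG arrays, a 2.02-fold decrease (-1.01 ± 0.21, adjusted p = 0.0225) with no overlap. The call ended after quantile normalisation and median-centring and with only these 8 arrays fitted. It also ended without untreated replicate 1, 2 or 4 or hCG replicate 2 or 4. INHBA, the subunit of activin A that follistatin binds, had untreated signals of 1826, 4197, 6186 and 3231 and hCG signals of 1032, 1813, 1694 and 1962, which overlapped (-1.15 ± 0.38, adjusted p = 0.196). INHA, the inhibin subunit that luteal cells secrete in quantity, was at 0.28 ± 0.17. Of the 9 signal transducers and targets of the family, 8 were below 0 and none passed on its brightest probe set. SMAD6 and SMAD7, inhibitory SMADs that BMP signalling induces, were at -0.46 ± 0.15 and -0.59 ± 0.18, both without overlap, and SMAD3 was at -0.56 ± 0.17. ID4, which blocks DNA binding by helix-loop-helix proteins, was at -0.48 ± 0.19 on its bright probe set, while a dim one passed at -0.99.

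In the IGF system 1 of 12 measured genes passed and the median was 0.34. IGF1, a growth factor that acts on luteal cells alongside LH, read 1382, 939, 743 and 1087 in untreated and 2933, 3259, 2061 and 2475 in hCG arrays. It rose 2.58-fold (1.37 ± 0.22, adjusted p = 0.00315), and a second probe set passed at 1.49. Several relatives had hCG arrays wholly above the untreated ones without passing: IRS2, a docking protein of the insulin and IGF1 receptors (1.32 ± 0.34, adjusted p = 0.082), IGFBP4, a binding protein (0.62 ± 0.17, adjusted p = 0.0875), and IGF2 (0.79 ± 0.26, adjusted p = 0.182). The groups did not overlap for 7.96% of all probe sets. IRS2 hCG signals were close together, at 1697 to 2059, and its untreated signals spread from 439 to 1365.

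BTC, betacellulin, a ligand of the EGF receptor, was the 1 call among 14 genes of the EGF family and ovulatory response. It read 429, 368, 431 and 509 without hCG and 161, 185, 149.9 and 201 with it, and fell 2.37-fold (-1.24 ± 0.24, adjusted p = 0.0132). The second BTC probe set fell too, at -0.79, and the call of the first ended without untreated replicate 4 or hCG replicate 3. The median of the list was -0.15 (-0.04 after centring). PTX3, a matrix protein of the expanding cumulus, was at 0.84 ± 0.32 and did not pass. Of 18 angiogenic factors and receptors, ADM, the vasodilator adrenomedullin, fell 2.07-fold (-1.05 ± 0.24, adjusted p = 0.0424), from 3179, 2711, 2109 and 4204 in untreated to 986, 1552, 1872 and 1416 in hCG arrays. This call ended after median-centring and with only these 8 arrays fitted. It also ended without untreated replicate 1, 2 or 4 or hCG replicate 1, 2 or 4. Of the 9 angiogenic receptors 8 were below 0, with TEK and TIE1, the receptors of the angiopoietin system, at -0.38 ± 0.17 and -0.36 ± 0.14, and neither passed.

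Receptor genes for other signals fell as well. HTR2B, a serotonin receptor, read 313, 411, 384 and 504 in untreated and 48.4, 55.3, 91.0 and 77.6 in hCG arrays, a 5.02-fold decrease (-2.33 ± 0.34, adjusted p = 0.00163), with the groups far apart. NGFR, the low-affinity neurotrophin receptor, read 1061, 1278, 1488 and 607 and 549, 296, 246 and 253 and fell 3.2-fold (-1.68 ± 0.36, adjusted p = 0.0303), with untreated replicate 4 and hCG replicate 1 nearly touching and its other probe set at -0.04. The call of NGFR ended with only these 8 arrays fitted and without untreated replicate 1, 2 or 3 or hCG replicate 2, 3 or 4. The list held 10 measured genes, and its other 8 did not pass. F2RL1 and F2RL2, protease-activated receptors, were at -0.55 ± 0.24 and -0.87 ± 0.39.

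**Figure D4:**
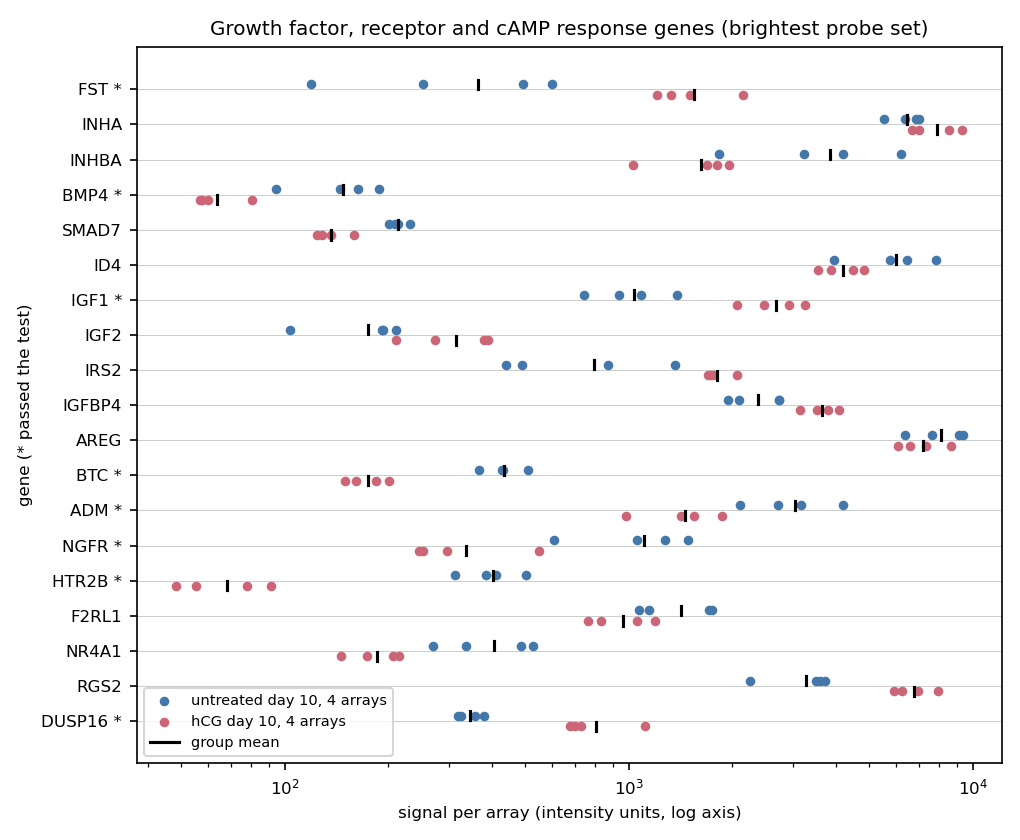
Signal on each array (horizontal axis, intensity units, log scale) for 19 growth factor, receptor and cyclic AMP response genes on their brightest probe sets. Blue points are untreated arrays, red points hCG arrays, black ticks group means and asterisks genes that passed; FST, IGF1 and DUSP16 lie to the right with hCG and BMP4, BTC, ADM, NGFR and HTR2B to the left, while AREG and INHA overlap.

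Stress and energy genes held few calls. In antioxidant defence 1 of 13 genes passed and the median was 0.15: GCLC, the catalytic subunit of the first enzyme of glutathione synthesis, rose 1.84-fold (0.88 ± 0.19, adjusted p = 0.0303), from 6666, 5730, 6665 and 4727 to 12240, 9007, 13480 and 9285. This call ended with only the 8 day 10 arrays fitted and without untreated replicate 2 or 4 or hCG replicate 1 or 3. The other GCLC probe sets ranged from 0.03 to 1.44, and only the highest of them passed. MGST1, a membrane-bound glutathione transferase, just missed on its brightest probe set (0.74 ± 0.18, adjusted p = 0.0532) and passed on its other one, at 0.81 (adjusted p = 0.0248). Among 9 heat shock genes DNAJB1, the co-chaperone of HSP70, rose 1.67-fold (0.74 ± 0.13, adjusted p = 0.0081), and the median was 0.28. The DNAJB1 call ended with only the 8 day 10 arrays fitted. Of 16 genes of endoplasmic reticulum stress none passed (median 0.04), with ATF4, a regulator of amino acid response genes, at 0.49 ± 0.20. Of 24 hypoxia and glycolysis genes none passed (median 0.05). ALDOC, an aldolase, came closest, at 1.15 ± 0.28 (adjusted p = 0.0563), with 248 to 371 in untreated and 504 to 1047 in hCG arrays. The 15 subunits of the mitochondrial respiratory chain lay between -0.08 and 0.24, and none had an unadjusted p under 0.05.

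No gene passed in the lists of cell cycle, apoptosis, interferon response, matrix proteases, prostaglandin pathway and steroid receptors. Of the 18 prostaglandin genes only 6 were measured, and 1 of these was a synthesis gene. The cell cycle list had 4 of 21 genes above 0 and a median of -0.21 (-0.09 after centring), with CCND1, cyclin D1, at -0.94 ± 0.37 and CDKN1A, the inhibitor p21, at 0.63 ± 0.23. Apoptosis had a median of -0.40 (-0.28 after centring) over 18 genes, and 5 had an unadjusted p under 0.05 downward and 1 upward. BBC3 and PMAIP1, which encode the death promoters PUMA and NOXA, were at -0.55 ± 0.17 and -0.84 ± 0.28. BCL2L11, which encodes BIM, was at 0.59 ± 0.16 on its brightest probe set, while its other probe sets lay between -0.48 and 0.07. All 17 interferon response genes were below 0, with a median of -0.52 (-0.40 after centring), and 6 had an unadjusted p under 0.05. Over all 52707 probe sets 6545 had such a p, in either direction. GBP1, an interferon-induced GTPase, read 240.4, 5842, 2655 and 406 in untreated and 154, 443, 302 and 390.4 in hCG arrays (-1.85 ± 0.74, adjusted p = 0.302), high in untreated replicates 2 and 3 only. PGR, the progesterone receptor, read 116 to 127 in untreated and 57.0 to 108 in hCG arrays (-0.52 ± 0.19, adjusted p = 0.247). PTGDR, a prostaglandin D2 receptor, was at -0.99 ± 0.35, and ADAMTS4, a proteoglycan-cleaving protease, at -0.79 ± 0.30.

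The markers of cell types gave the tissue its context. The 7 luteal steroidogenic markers summed to 51720 to 62930 in the untreated and 55600 to 66440 in the hCG arrays, and none passed. Of 14 endothelial markers SOX17, a transcription factor of arterial endothelium, fell 1.59-fold (-0.67 ± 0.16, adjusted p = 0.0472), from 829.7, 647, 765 and 654 to 479.6, 403, 491 and 419. Its call ended after median-centring, with only the 8 arrays fitted and when any one of them was left out. PECAM1, CDH5 and VWF, the defining endothelial genes, were at -0.01, -0.14 and 0.27, and the list summed to 10960 to 12080 in untreated and 9271 to 12330 in hCG arrays, with a median of -0.10 (0.01 after centring). Whether the level of endothelial RNA had a part in the lower values of SOX17, TIE1 and TEK was not tested. Macrophage markers summed to 3597 to 10240 in untreated and 5030 to 6627 in hCG arrays, with a median of -0.17 (-0.06 after centring) over 11 genes and no call on the brightest probe sets. C1QA was at -0.17 ± 0.29 on its bright probe set, C1QB at -0.19 and C1QC at -0.11, while a dimmer C1QA probe set was called higher at 1.49.

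ELF5 stood alone among the epithelial markers. Of 11 measured, the other 10 did not pass, and the median was 0.11. The 11 summed to 1459 to 2224 in untreated and 2104 to 2945 in hCG arrays. These sums include ELF5, with a mean of 51.4 in untreated and 541 in hCG arrays. Of the 11 markers 4 stayed under 16 in all 8 arrays, so not all epithelial markers were silent. The defining epithelial genes EPCAM and KRT7 were near 0 in every array, at 0.631 to 5.3 and 1.64 to 2.44 in untreated and 0.677 to 4.31 and 1.65 to 2.55 in hCG arrays, and CDH1, E-cadherin, did not exceed 13.8. Smooth muscle (6 genes, median -0.09, 0.02 after centring), fibroblast (8 genes, -0.16, -0.04 after centring) and T and NK cell markers (6 genes, -0.03, 0.08 after centring) had 0 calls. The same held for B cell (5 genes, -0.11, 0.01 after centring), neutrophil (5 genes, -0.01, 0.11 after centring), red blood cell (5 genes, 0.11, 0.23 after centring) and ovarian stroma markers (6 genes, 0.14, 0.25 after centring). GZMB, granzyme B, was bright in all arrays, at 3896 to 11080 in untreated and 8345 to 11850 in hCG arrays, whereas CD8A and NKG7 stayed at or under 160.3 units. The 6 reference genes had a median of 0.01 and a range of -0.18 to 0.14.

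**Figure D5:**
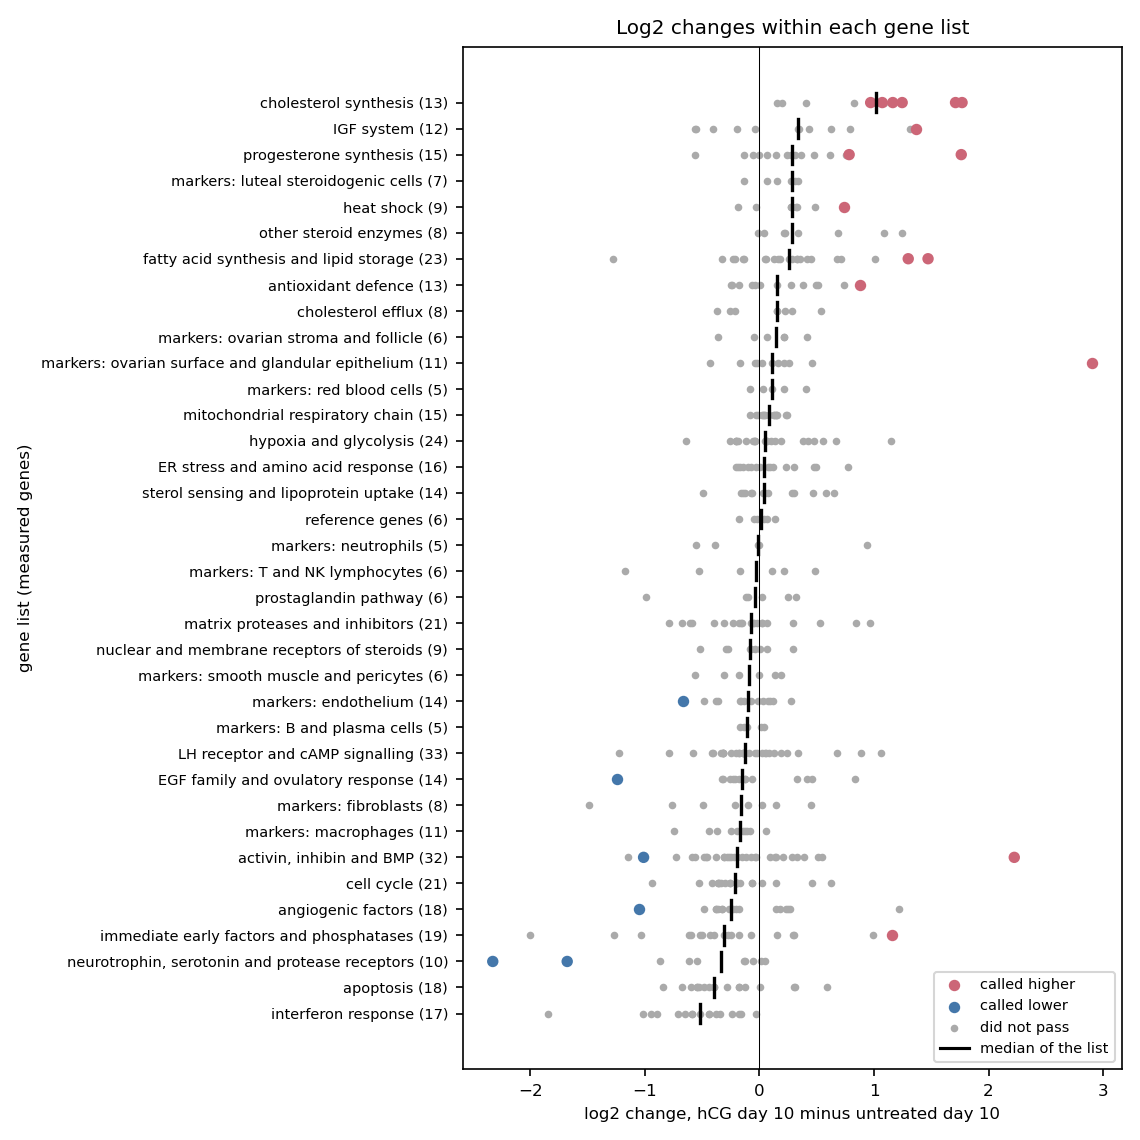
Log2 change of every measured member (points, horizontal axis) in each of 36 gene lists (rows, with the number measured in brackets), sorted by the median, drawn as a black tick. Red points are genes called higher, blue points genes called lower and grey points genes that did not pass; the median of cholesterol synthesis stands at 1.02, and the other medians lie between -0.52 and 0.34.

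Only 28 of the 263 called genes belong to these lists. The following are the remaining increases among the 10 with the smallest p-values. UNC119, a carrier of lipid-modified signalling proteins, read 1342, 1153, 1158 and 1377 in untreated and 2582, 2793, 2989 and 2656 in hCG arrays (1.12 ± 0.12, adjusted p = 0.00015). AVPI1, a gene known for its response to vasopressin, rose 2.49-fold (1.32 ± 0.14, adjusted p = 0.00015), with 189 to 237 in untreated and 474 to 608 in hCG arrays. TP53RK, a kinase of the KEOPS complex, rose 1.93-fold (0.95 ± 0.11, adjusted p = 0.000241) and MYH7B, a slow myosin heavy chain, 2.01-fold (1.00 ± 0.12, adjusted p = 0.000479), each with a second called probe set. The remaining MYH7B probe set was at 0.01. GADD45B, a stress-response gene, read 222, 116, 107 and 112 and 419.7, 427, 471 and 531, with untreated replicate 1 apart from the other 3, and rose 3.19-fold (1.68 ± 0.19, adjusted p = 0.000322), and its other 2 called probe sets rose by 1.38 and 0.92. KCNG3, a modifier subunit of potassium channels, rose by 1.57 ± 0.19 (adjusted p = 0.000503), with hCG replicate 4 at 223 and the other hCG arrays at 134 to 137. SAMD14 rose by 1.77 ± 0.18 (adjusted p = 0.00011) from signals of 3.17 to 4.94, which lie under the 16 units added, so only the direction of its change is resolved.

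Among decreases the smallest p-values belonged to NEDD1 and BCO2, and the 10 smallest also held STK26, STK17B and HTR2B, all given above. The other 5 follow. SOX4, a transcription factor of progenitor cells, read 2644, 1860, 2145 and 2963 in untreated and 1346, 1191, 1073 and 1173 in hCG arrays (-0.98 ± 0.16, adjusted p = 0.00462), and a second probe set passed too. Another SOX4 probe set was at 0.08. UBP1, a transcription factor of the grainyhead-like family, fell by 0.87 ± 0.13 on the log2 scale (adjusted p = 0.00196). The calls of SOX4 and UBP1 ended when only the 8 day 10 arrays were fitted. ISM1, a secreted protein, fell 2.01-fold (adjusted p = 0.00224), with 52.8 to 84.4 in untreated and 21.0 to 36.5 in hCG arrays, and SAMD8, a ceramide phosphoethanolamine synthase, 2.03-fold (-1.02 ± 0.16, adjusted p = 0.00303), with 95.6 to 126 in untreated and 42.3 to 52.5 in hCG arrays. The other ISM1 probe set was at -0.08. IGF2BP2, an RNA-binding protein, was called lower on a probe set whose signals were all under 16 (8.19 to 13.8 and 0.966 to 3.11), so its change has no reliable size. The IGF2BP2 call ended after median-centring and with only the 8 day 10 arrays fitted.

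Gene families by symbol held few calls each, beside 1.54% called over all genes on brightest probe sets. In the SOX family 3 of 15 measured genes were called, SOX17 and SOX4 lower and SOX9 higher (20% of a small family), the last from signals of 3.01 to 12 in untreated to 22.2 to 47.9 in hCG arrays. Of 21 STK genes 3 were called lower, STK17B, STK26 and STK38L. Of 32 DNAJ co-chaperone genes 2 were called on the brightest probe set, DNAJA4 and DNAJB1, and DNAJC1 on another, all higher. Of the larger families, 3 of 282 solute carriers (SLC) were called (1.06%), SLC26A8, SLC35C1 and SLC45A3, and 3 of 168 TMEM genes (1.79%), TMEM120A, TMEM132C and TMEM63C, shares near that over all genes. The RAB, RNF and MAP families had 2 calls each, in 44, 47 and 31 genes.

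Further called genes are named here after their values were seen, as examples of what the other calls held. Among kinases and their anchors, PRKX, a relative of the protein kinase A catalytic subunits, rose by 1.86 ± 0.23 (adjusted p = 0.000519), with 191 to 297 in untreated and 802 to 1228 in hCG arrays, on 1 of its 7 probe sets. AKAP1, which anchors protein kinase A to mitochondria, rose on 3 probe sets, by 1.12, 1.11 and 0.95, and CDK16, a cyclin-dependent kinase outside the cell cycle core, on 4, by 0.86 to 1.51. SIK2, a kinase that protein kinase A inhibits, rose by 0.57 ± 0.13. RCAN1, a regulator of calcineurin, rose by 2.07 and 1.86 on 2 of 3 probe sets, with the other at 0.02. On the first of these its signals were 325, 252, 356 and 202 in untreated and 1443, 1095, 1494 and 929 in hCG arrays, well apart, with an adjusted p of 0.0395.

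Other calls, also chosen after their values were seen, were in metabolism, membranes and the matrix. CYB5A, cytochrome b5, which boosts the lyase activity of CYP17A1, rose by 0.70 ± 0.14 (adjusted p = 0.0221), with 4437 to 6817 in untreated and 8400 to 9543 in hCG arrays, on a probe set that may also match related transcripts, while its other one was at 0.52 and did not pass. MGARP, a mitochondrial protein of steroidogenic tissue, rose by 0.84 ± 0.15 on 1 of its 4 probe sets, and ADA, adenosine deaminase, by 1.47 and 1.45 on 2 of 3. CLMP, a cell adhesion molecule, rose by 1.83 ± 0.29, CPM, carboxypeptidase M, by 1.39 and 1.36, and OSMR, the oncostatin M receptor, by 0.77 ± 0.18. KLF15 and TSC22D3, which are known as glucocorticoid-responsive genes, rose by 0.94 ± 0.20 (other probe set at -0.11) and 0.75 ± 0.16. On the other side, OPN3, an opsin, read 503, 1132, 1739 and 652 in untreated and 115, 141, 717 and 163 in hCG arrays. It fell by 2.01 ± 0.47 on the log2 scale (adjusted p = 0.0461), although hCG replicate 3 lay within the untreated range. RIF1, a replication-timing factor, fell by 1.19 ± 0.23, on 1 of its 3 probe sets, and GCH1, which starts tetrahydrobiopterin synthesis, by 0.86 ± 0.20.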

How the data were processed

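RNA extracted with TRIzol was amplified, labelled with biotin and hybridised to Affymetrix rhesus arrays, per the labels' protocols. The deposited values are 1 linear intensity (signal) per probe set and array, made by the authors with GCOS per the submitters' processing notes; its version and scaling target are not given in the sources used here. Tested on the table, every array had a 2% trimmed mean of 200.01 to 200.02. Detection calls and raw images were not used here, and no depth applies to arrays, whose number limits the precision.

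Of 52865 probe sets, 158 controls were left out. The platform annotation gave 24956 probe sets 1 symbol, 361 several and 27390 none, and only the first are named. log2(signal + 16) was fitted with limma 3.58.1 in R 4.3.3, with 1 mean per group over all 20 arrays (15 residual degrees of freedom), eBayes and Benjamini-Hochberg adjustment, threshold 0.05. The procedure was tested on simulated data. Named genes were the 12 largest changes each way without overlap of arrays (each gene by its probe set of smallest p), the 10 smallest p-values each way, every called list member (or up to 2 as values), the reference genes, called members of symbol families of at least 10 genes, and, beyond this rule, further list members as values and genes said in the text to have been chosen after their values were seen. Lists used 1 probe set per gene, the brightest, and 478 of 665 list members had one. Members and lists were chosen with earlier results of these data known. Alternatives changed the scaling (quantile normalisation or median-centring), the probe sets kept (brightest 50%), the model (only these 8 arrays, array weights, replicate block, variance trend), the units added (1 or 64), the choice of probe set per gene, and the arrays, leaving out each array or the 3 apart. Figures were drawn with matplotlib. Sequences were not used here.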

Additional observations from a re-analysis of the deposited data

Results flagged for a closer look

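Of 198 groups of 4 arrays examined, 1 for each named gene and group, 11 held 1 array that lay far from the other 3 by Dixon's criterion, and chance gives this in about 1 in 20 groups. Untreated replicate 1 was high for GADD45B (222, others 107 to 116) and low for LPCAT3 (727, others 1230 to 1270). Untreated replicate 2 was high for MXRA5 (3620, others 1810 to 1960), replicate 3 low for RGS2 (2260, others 3510 to 3720) and replicate 4 low for CYP19A1 (3810, others 6730 to 6930). In the hCG group, replicate 1 was low for LPCAT3 (948, others 1870 to 1910) and NR1H2, a liver X receptor (294, others 355 to 362). hCG replicate 3 was high for DUSP16 (1120, others 675 to 726), PDE7B (465, others 240 to 256) and BMP4 (80.5, others 56.9 to 60.1), and replicate 4 for KCNG3 (223, others 134 to 137).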

How the results depend on the processing

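The count of 503 probe sets was 172 in a fit of the 8 arrays alone (132 higher, 40 lower), 254 with 1 unit added (186 and 68) and 324 without the 3 arrays of the series that stand apart (218 and 106). Decreases numbered 75 after median-centring. Leaving out 1 array gave 228 to 577 calls, 177 to 351 higher and 51 to 226 lower: the total was 279, 298 and 265 when untreated replicate 2, 3 or 4 was dropped, 228 and 275 when hCG replicate 3 or 4 was. The 263 named genes (189 higher, 74 lower) became 90 (73, 17) in the 8 arrays, 139 (105, 34) with 1 unit added and 171 without the 3 arrays apart (45 lower). Named decreases were 37 after median-centring, 121 in the brightest 50% of probe sets and 117 with 64 units added. Leaving out 1 array gave 126 to 311 named genes, 99 to 201 higher and 27 to 110 lower, and other choices of probe set 324 and 264. Of 55 called probe sets named by the rule, 37 kept their calls whichever array was left out, 28 did so under every alternative tried, and none turned direction. In the 8 arrays alone 23 of the 55 calls ended, and with 1 unit added 12. CD79B, at -0.11, was 0.00 after quantile normalisation and 0.01 after median-centring, and HBM, at 0.11, was -0.02 to 0.18 with 1 array left out, the lowest without hCG replicate 3. Of same-numbered arrays, the pair numbered 1 deviated together (correlation 0.245) and the other pairs did not (0.029, -0.011 and 0.0349), beside -0.12 to 0.11 between arrays of different number. With 3 of 8 correlating best with their own number, the numbers were not taken to pair the samples. A replicate block gave 417 calls (291 higher, 126 lower). The number of arrays and the 16 units added limit what dim genes show.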

Other observations

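Several called genes fell into pathways that no list of the report covered, and 5 small lists were written for them after their values had been seen, so their counts describe and carry no test. Heme synthesis had 2 of 8 measured enzymes called higher. ALAS1, the first and rate-limiting enzyme, which supplies heme to the P450 enzymes, read 1440, 2916, 2350 and 1516 in untreated and 4790, 5757, 6170 and 5096 in hCG arrays, without overlap (1.46 ± 0.31, limma adjusted p = 0.0303). ALAD, the next enzyme, was at 0.89 ± 0.20 (adjusted p = 0.044), while FECH, which inserts the iron, was at -0.09 ± 0.21 and ALAS2, the red-cell form of the first enzyme, at -0.09 ± 0.42. Among 13 acyl-CoA and carnitine enzymes 4 were called higher and 11 were above 0. Besides ACSL1 these were ACOT6, an acyl-CoA thioesterase (1.08 ± 0.23), CRAT, carnitine acetyltransferase (0.87 ± 0.17), and OLAH, a thioesterase of fatty acid synthesis, which read 0.81 to 11.3 in untreated and 36.3 to 70.9 in hCG arrays and whose size depends on the 16 units added. Phosphatidylcholine and sphingolipid synthesis had 3 of 13 genes higher, MFSD2A, PCYT1B, an isoform of the rate-limiting enzyme of phosphatidylcholine synthesis (1.74 ± 0.23, with untreated signals of 6.73 to 30.1, so that its size depends on the 16 units added), and SPTLC3, a subunit of serine palmitoyltransferase (1.22 ± 0.28), and 1 lower, SAMD8.

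In the sialic acid pathway 12 of 13 genes were above 0 and 1 was called on its brightest probe set, ST3GAL4, a sialyltransferase, which read 511, 580.3, 346 and 569.9 in untreated and 932, 1270, 1365 and 1411 in hCG arrays (1.29 ± 0.22, adjusted p = 0.00571). CMAS, which activates sialic acid, was called higher on 2 of its dimmer probe sets, at 1.02 and 0.85, and stood at 0.26 ± 0.15 on the brightest and at -0.66 on another, so its probe sets disagree. Of 17 genes of Notch signalling and Sprouty-type feedback, 4 were called lower and 3 were above 0. HEY2, a Notch target of arterial endothelium, read 538, 625, 543 and 641 and 363, 366, 419 and 257 (-0.73 ± 0.17, adjusted p = 0.0459), and DTX4, a Notch pathway ubiquitin ligase, 205, 191, 212 and 213 and 113, 107, 109 and 148 (-0.72 ± 0.14, adjusted p = 0.0188). SPRY2, a feedback inhibitor of receptor tyrosine kinases, fell by 0.68 ± 0.12 on the log2 scale (adjusted p = 0.00905), while a dimmer SPRY2 probe set was at 0.11, and IL17RD, an inhibitor of FGF signalling, was lower but near the 16 units added. Of the 43 called genes in which some probe set pointed the other way, 4 had one past 0.5 log2 units in that direction.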
